A study of Mus musculus with 4 samples.

Results

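Irf8 and 7 genes of the monocyte lineage (Csf1r, Clec12a, Ly86, Ly6c2, Ctsh, F13a1 and Tifab) were followed across Lin-Sca1+cKit+ (LSK) bone marrow progenitors of mice with and without the nuclear pore protein Nup358. They are 8 of the 27998 genes in the tables and were taken by symbol. They were selected on earlier results of these same counts, read by cell class and by genotype, so their levels and differences are given as a description. The adjusted p-values printed for them come from the fit over all genes and are no independent support for the choice.

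Control mice were Nup358 fl/fl, which the labels call wild-type, and knockout mice were Nup358 fl/fl CreERT2, labelled Nup358 KO. All mice received tamoxifen and were 9 to 12 weeks old. CreERT2 was expressed from the Rosa26 locus, so that deletion was not limited to blood cells. Each genotype had 2 single-cell RNA libraries (10x Genomics, 3′ ends), and each library pooled the bone marrow of 3 mice. The counts read the 3′ end of Ranbp2, the gene for Nup358, and not the deleted exon, so they give no check of the genotype.

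Irf8 is a transcription factor of the interferon regulatory factor family. It binds DNA mostly with partners such as PU.1 and is required for monocytes and several dendritic cell types, while progenitors without it turn to granulocytes. Csf1r is the receptor for the cytokines CSF1 and IL-34, on which monocytes and macrophages depend. Clec12a is an inhibitory C-type lectin receptor of myeloid cells, and Ly86 (MD-1) is the partner of the Toll-like receptor homologue RP105. Ly6c2 encodes the surface protein Ly6C of inflammatory monocytes. Ctsh is the lysosomal protease cathepsin H, F13a1 is the catalytic subunit of coagulation factor XIII, which monocytes and macrophages also make, and Tifab is an inhibitor of TRAF6 signalling. Elane, neutrophil elastase, is a primary granule gene and marks progenitors of granulocytes and monocytes.

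Of the 8 genes, Irf8 lies at chr8:120736358-120756694 on the plus strand of GRCm38, the mouse build of the files. Ly6c2 lies at chr15:75108158-75111970 on the minus strand, and Clec12a at chr6:129342691-129365303 on the plus strand. Ctsh is at chr9:90054152-90076089 on the plus strand. F13a1, Ly86 and Tifab are on chromosome 13, with F13a1 at chr13:36867178-37050244 (minus), Ly86 at chr13:37345208-37419036 (plus) and Tifab at chr13:56173704-56178885 (minus). F13a1 and Ly86 are separated by 294964 bases.

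Promoter windows, the 250 bases before the transcript start in RefSeq's annotation of GRCm38.p6, were matched for 6 of the 8 genes. They were searched on both strands for 5 motifs of factors known in this lineage. The motifs were the PU.1 core AGGAAGT, the PU.1-IRF composite GGAANNGAA, the interferon response repeat GAAANNGAA, the STAT site TTCNNNGAA and the C/EBP site TTGCNNAA. GGAANNGAA and GAAANNGAA can overlap each other. The windows of Irf8, Ly6c2 and Clec12a held a match, and those of Irf8 and Ly6c2 are shown 5′ to 3′ on the gene's strand because these genes carry the expression differences below. Capitals mark the match.
Irf8 (chr8:120736108-120736357): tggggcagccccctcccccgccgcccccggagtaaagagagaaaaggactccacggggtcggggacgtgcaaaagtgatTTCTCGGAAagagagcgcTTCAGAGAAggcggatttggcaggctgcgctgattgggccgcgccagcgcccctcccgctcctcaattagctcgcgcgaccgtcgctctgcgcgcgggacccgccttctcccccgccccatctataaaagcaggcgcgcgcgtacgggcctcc
Ly6c2 (chr15:75111972-75112221): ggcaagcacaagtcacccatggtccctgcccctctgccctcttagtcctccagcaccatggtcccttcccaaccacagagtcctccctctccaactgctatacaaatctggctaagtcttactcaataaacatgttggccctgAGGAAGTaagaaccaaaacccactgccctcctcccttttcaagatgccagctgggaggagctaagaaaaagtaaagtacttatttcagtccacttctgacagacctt
The Irf8 window, with 67.2% G and C, held a pair of STAT letter matches, which begin 171 and 153 bases before the start. Ly6c2 had 1 PU.1 match beginning 107 bases before the start, and Clec12a had 1 C/EBP match, TTGCGCAA, beginning 140 bases before it (window chr6:129349994-129350243, plus strand). The Clec12a window is not printed because it overlaps the first exon of an annotated transcript. Among all 27025 promoter windows of this length, 7.18% held the STAT letters, 7.80% the PU.1 letters and 9.55% the C/EBP letters. The PU.1-IRF composite was in 7.03% and the interferon response repeat in 7.16% of all windows, and in 0 of the 6 members' windows. The windows of Ly86, F13a1 and Tifab held no match to any of the letters searched.

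The 4 libraries held 4313 to 9250 barcodes. Many barcodes were found again in another library with at least 3 times as many UMIs (unique molecular identifiers, 1 per counted molecule), from 14.8% of those in control replicate 1 to 81.8% in control replicate 2. These are called copies here. For 6669 (61.0%) of the 10932 copies that passed the cell filters, the barcode with the most UMIs was in a library of the other genotype, and 86.3% of Elane-high copies matched an Elane-high barcode (52.2% to 96.2% by library), against 2.86% of the other copies. Whether they are the same cells was not tested further. Copies were left out, and results with them kept are given beside the main ones. That left 14041 cells of 25242 barcodes, with 1200 to 7830 cells a library and a median of 6251 to 17707 UMIs a cell. Levels are given as CPM, the UMIs of a gene per 1000000 UMIs of the same cells, summed per library.

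Cells were sorted into classes by marker genes, none of them a member. Elane-high cells had at least 5 Elane UMIs per 10000, and there were 1704 of them in the control and 48 in the knockout libraries. Other classes carried panels of monocyte, plasmacytoid dendritic (pDC), erythroid, megakaryocyte, basophil and mast, B-lineage or Dntt (lymphoid-primed) transcripts, high Mpo alone (Mpo-early), stem cell transcripts (stem-like) or none of these (unprimed). Classes with fewer than 20 cells in a library were given no level there.

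In control libraries Irf8 was highest in the monocyte-gated cells and second in the Elane-high cells. It measured 312 and 325 CPM in monocyte-gated cells of control replicates 1 and 2. Elane-high cells held 249 and 246 CPM, below both monocyte-gated values. Lymphoid-primed cells followed with 142 and 128 CPM and overlapped the Mpo-early cells, at 149 and 88.9 CPM. Unprimed cells held 70.4 and 46.2 CPM and stem-like cells 21.3 and 17.8 CPM, and neither overlapped its neighbours above. Stem-like cells overlapped erythroid-gated cells, at 26.6 and 0 CPM, and megakaryocyte-gated cells held 11.3 CPM in the 1 control library with enough of them.

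In knockout libraries this order changed, and the Elane-high cells came 7th of 11 classes. The ranks are not on the same set, since only 8 classes had a level in control libraries. The pDC-gated, B-lineage-gated and basophil and mast cells had none there. The pDC-gated cells, too few for a level in control libraries, had 3274 and 1615 CPM of Irf8 in knockout replicates 1 and 2. Monocyte-gated cells held 153 and 662 CPM and overlapped the B-lineage-gated cells, at 157 and 127 CPM. Lymphoid-primed cells had 113 and 97.0 CPM, close below their control values. Mpo-early cells had 51.8 and 32.7 CPM and unprimed cells 34.8 and 29.3 CPM, ranges that overlapped each other and the Elane-high cells at 33.3 and 24.3 CPM. Stem-like cells, at 20.2 and 13.2 CPM, overlapped their control range. The 662 CPM of monocyte-gated cells in knockout replicate 2 came from 30 cells. In these cells the summed macrophage markers C1qa, C1qb, C1qc, Adgre1 and Vcam1 reached 385 CPM, against 59.5 in knockout replicate 1 and 7.73 to 12.6 in the control libraries, and their part in the Irf8 level was not tested.

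**Figure D1:**
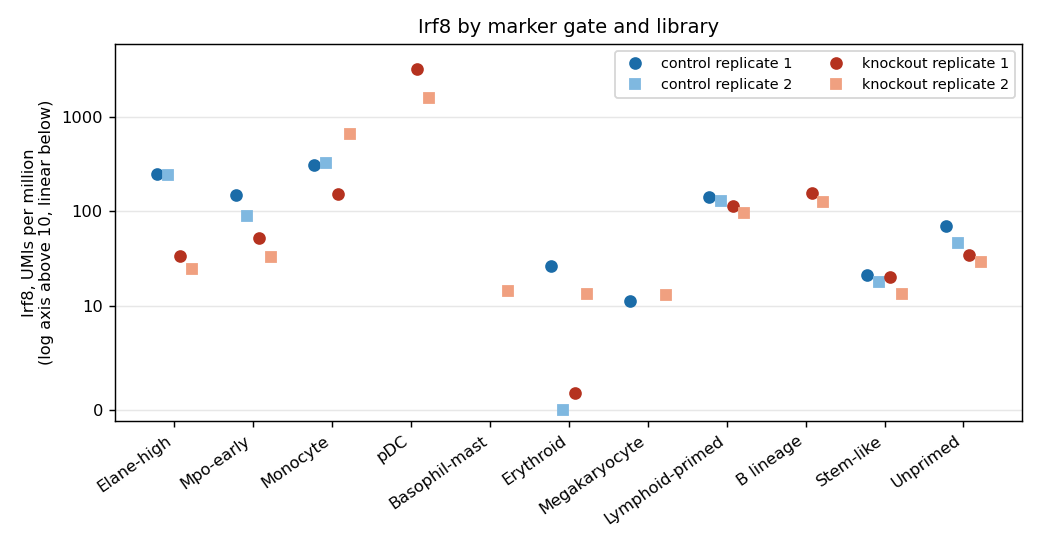
Irf8 level (CPM, on an axis that is linear below 10 and logarithmic above) in each marker-gated class, 1 point per library with at least 20 cells in the class. Elane-high cells lie at 249 and 246 CPM in the control libraries and at 33.3 and 24.3 CPM in the knockout libraries. Mpo-early, unprimed and, by a smaller margin, lymphoid-primed cells also lie lower in both knockout libraries than in either control library. The stem-like ranges of the genotypes overlap.

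The other 7 genes shared the monocyte and Elane-high peak in control cells to different degrees. Csf1r, Ly86, Ctsh and F13a1 had their highest mean in monocyte-gated cells and the next in Elane-high cells. For Csf1r (chr18:61100598-61132149, plus strand) the monocyte-gated values of 27.9 and 56.1 CPM lay above the Elane-high values, whereas the ranges of Ly86, Ctsh and F13a1 in these classes overlapped. Clec12a, Ly6c2 and Tifab were highest in Elane-high cells, with both libraries above the monocyte-gated ones. Ly6c2 was the most restricted of these, at 598 and 794 CPM in Elane-high cells against 67.4 and 128 in monocyte-gated and 9.71 and 5.02 in Mpo-early cells. Between these came megakaryocyte-gated cells, at 50.4 CPM in the 1 control library with enough of them, and unprimed cells, at 14.8 to 18.3 CPM. Clec12a was spread more widely, with 103 and 115 CPM in lymphoid-primed cells. Ctsh was the exception among the early cells, since stem-like cells, at 18.9 and 21.3 CPM, came next, above the lymphoid-primed cells.

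Among the knockout classes, Irf8, Clec12a, Ly86, Ly6c2, Ctsh and Tifab had their highest mean in the pDC-gated cells. Ly6c2 reached 1724 and 953 CPM there and Ctsh 683 and 350 CPM. For Clec12a the mean of 184 CPM was below the 267 CPM of control Elane-high and the 197 CPM of control monocyte-gated cells. Its pDC-gated range, 108 to 260 CPM, overlapped that of knockout lymphoid-primed cells. In the pDC-gated cells Csf1r was at 0 in both knockout libraries, with 21 and 52 cells, and F13a1 was at 0 and 3.84 CPM. At a median of 3420 and 2396 UMIs a cell, these low values carry wide counting error. The highest mean of Csf1r in any knockout class was 17.9 CPM, so its 0 is no clear contrast. B-lineage-gated cells of the knockout libraries also held Ly6c2, at 349 and 319 CPM. In knockout replicates 1 and 2 they held 14987 and 5139 CPM of the plasma cell gene Jchain. Kit, a gene used in the sort, was at 16.3 and 28.3 CPM in them and 0 and 84.6 CPM in pDC-gated cells. Over all cells of these libraries Kit was at 89.8 and 73.3 CPM. Ly6a, which encodes Sca1, was higher in both classes than over all cells. Whether these classes were LSK progenitors was not tested. Reads of Ly6c2 can be shared with its near-identical neighbour Ly6c1, which was at 0.557 to 1.04 CPM over all cells, so the split between them is uncertain.

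Within Elane-high cells, 8 of 8 members had lower levels in both knockout libraries than in either control library. In the fit across 9307 genes 7 of the 8 passed an adjusted p of 0.05 as lower and none as higher, where 0.526% of all genes passed as lower and 0.322% as higher. The median log2 fold change was -2.83 over the members and -0.02 over all genes. Since the members were chosen with this contrast known, nothing is read from the 8 of 8 or the 7 of 8. How many of all genes separated in the same way was not counted. All 8 passed the filter on low counts, Csf1r, Ly86 and Ctsh through the control libraries alone. The adjusted p-values of Csf1r, Ly86 and Ctsh are therefore given as description and not as support for a fall. The knockout libraries held 27 and 21 Elane-high cells against 1578 and 126 in the control libraries. DESeq2 called 5 of the 8 as lower.

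Irf8 had 4950 and 943 UMIs in the control Elane-high cells and 25 and 11 in the knockout ones. These gave 249 and 246 CPM (248 ± 2.12, SD, n = 2) against 33.3 and 24.3 CPM (28.8 ± 6.32, n = 2). The gap was far larger than the spread within either genotype. Its log2 fold change was -3.10 ± 0.26 (SE, adjusted p = 7.87e-05 by edgeR's quasi-likelihood test). With copied barcodes kept the levels were 249, 239, 107 and 115 CPM and the log2 fold change was -1.14 (adjusted p = 0.0150).

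Of the 3 receptor genes, Clec12a fell least. It stood at 236 and 298 CPM in control and 116 and 106 CPM in knockout Elane-high cells, a log2 fold change of -1.30 ± 0.24 (adjusted p = 0.0195, edgeR). Csf1r was counted 414 and 103 times in control cells and 4 and 0 times in knockout cells. These are 20.8 and 26.9 CPM against 5.33 and 0 CPM, with a log2 fold change of -2.88 ± 0.63 and an adjusted p of 0.0457 (edgeR) just under the threshold. Ly86 had 393 and 132 UMIs in control cells and 1 and 0 in knockout cells. The knockout level was 3.75% of the control level (0.831 against 22.2 CPM over the pooled UMIs), with an exact 95% interval of 0.0948% to 21.0% that covers counting error only. Its adjusted p was 0.0113 (edgeR). Kept copies raised the knockout levels of all 3, to 169 to 177 CPM for Clec12a, 11.6 to 13.1 for Csf1r and 9.09 to 14.6 for Ly86. None of the 3 passed the test then (adjusted p = 0.323, 0.455 and 0.382, edgeR).

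The surface gene Ly6c2 had the steepest fall after Ly86, whose knockout level rests on 1 UMI. Its control levels of 598 and 794 CPM stood against 54.6 and 15.5 CPM in knockout Elane-high cells. The knockout values rest on 41 and 7 UMIs, of which a single cell held 13 and 4. The log2 fold change was -4.25 ± 0.38 (adjusted p = 9.37e-05, edgeR), and -1.38 with copies kept (adjusted p = 0.00680).

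Among the enzymes, Ctsh went from 31.8 and 37.1 CPM to 2.66 and 8.85 CPM, which are 2 and 4 UMIs in the knockout libraries (log2 fold change -2.78 ± 0.48, adjusted p = 0.0157, edgeR). F13a1 had 199 and 216 CPM in control and 128 and 62.0 CPM in knockout cells. Its groups did not overlap, but the log2 fold change of -1.13 ± 0.28 missed the threshold (adjusted p = 0.0937, edgeR). The TRAF6 inhibitor Tifab had 45.5 and 52.0 CPM against 14.6 and 4.43 CPM, a log2 fold change of -2.24 ± 0.40 (adjusted p = 0.0171, edgeR). With copies kept, Ctsh and Tifab no longer passed (log2 fold changes -1.34 and -0.86, adjusted p = 0.116 and 0.247). Leaving out knockout replicate 2 left Irf8 and Ly6c2 as the only members past the threshold, although 8 of 8 had an unadjusted p under 0.05. Clec12a and Csf1r no longer passed without control replicate 2, nor did Clec12a and Ctsh without knockout replicate 1.

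**Figure D2:**
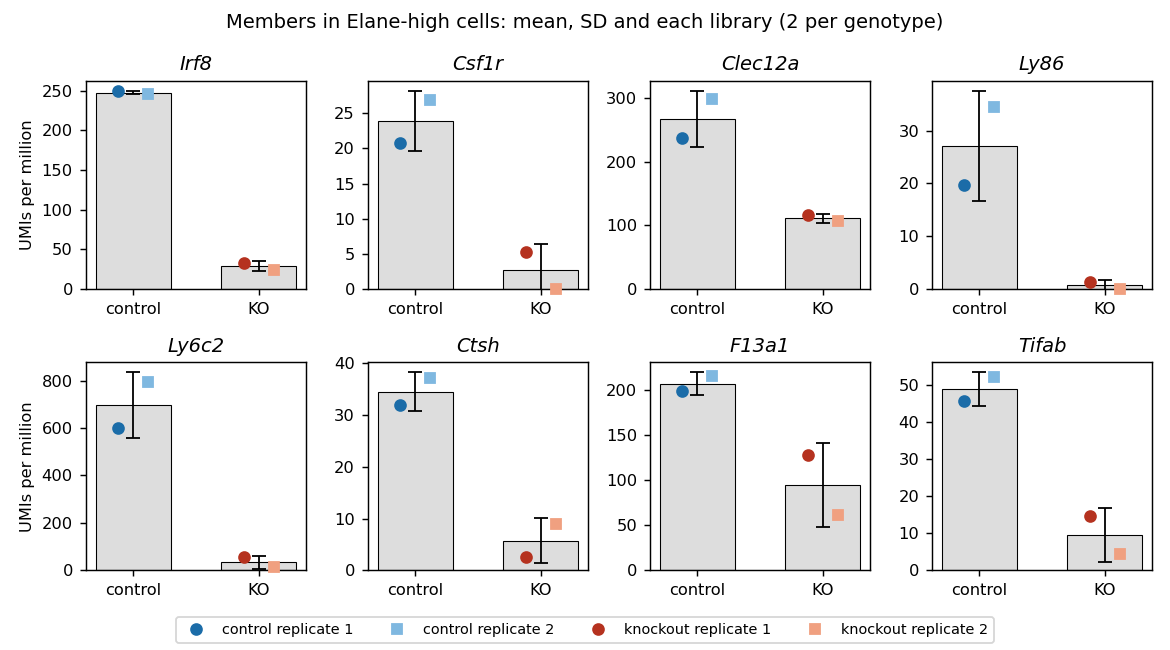
Level of each member (CPM) in Elane-high cells, with bars for the mean of 2 libraries, error bars for the SD and 1 point per library. Knockout points lie below both control points for every gene. In proportion the gap is narrowest for F13a1, with a knockout library at 128 CPM against control libraries at 199 and 216.

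Knockout Elane-high cells also carried less Elane itself, at 1096 and 1647 CPM against 5336 and 5167 CPM. The members were therefore also compared over a narrower range of Elane, which lessened this gap without closing it. In cells with 5 to 40 Elane UMIs per 10000, Elane was at 916 and 1100 CPM in the knockout and 1773 and 1873 CPM in the control libraries. Irf8 in these cells was 233 and 253 CPM in control and 35.3 and 26.9 CPM in knockout libraries. The log2 fold change was -2.93 (adjusted p = 0.000104, edgeR), close to that of the whole gate. Ly6c2 was at 272 and 428 CPM against 49.4 and 7.33 CPM, with a log2 fold change of -3.46 (adjusted p = 0.00260). Ly86 had 18.0 and 37.1 CPM in control and 1.41 and 0 CPM in knockout cells, where its count was 1 UMI in all. It was the only other member under the threshold in this range (adjusted p = 0.0198, edgeR). That is no support, since Ly86 entered the fit through the control libraries alone. With the gate moved up to 10 Elane UMIs per 10000 no member passed in edgeR's test, Irf8 included, at a log2 fold change of -3.43 (adjusted p = 0.0536), and 7 of 8 had an unadjusted p under 0.05. With copies kept, Irf8 at 5 to 40 was 232 and 235 CPM in control and 70.4 and 74.4 CPM in knockout cells.

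Irf8 was higher in both control libraries than in either knockout library at each Elane range given here. In control replicate 1 it was 103 CPM in cells without an Elane UMI, 189 in cells above 0 and below 3 per 10000, 175 at 3 to 5, 223 at 5 to 8 and 239 at 10 to 40. Knockout replicate 1 had 60.2, 58.2, 36.1 and 43.2 CPM up to 5 to 8 and 30.01 CPM at 10 to 40. Control replicate 2 rose from 65.5 CPM without Elane to 318 CPM at 10 to 40, whereas knockout replicate 2 went from 50.2 to 29.7 CPM. At the gate's edge, cells just outside (3 to 5 per 10000) had 175, 76.3, 36.1 and 38.0 CPM of Irf8 in control replicates 1 and 2 and knockout replicates 1 and 2. Cells just inside (5 to 8) had 223, 115, 43.2 and 5.65 CPM. Only 8 to 21 cells lay behind the just-inside values other than that of control replicate 1, which had 211. The just-outside values of control replicate 2 and knockout replicates 1 and 2 rest on 11, 18 and 16 cells. At 10 to 40 the knockout values rest on 7 and 9 cells.

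Ly6c2 was higher at the upper ranges of control cells. It measured 59.1 and 0 CPM just outside the gate, 120 and 147 CPM just inside and 331 and 553 CPM at 10 to 40 Elane UMIs per 10000. The knockout libraries held 34.1 and 0 CPM just outside, 80.2 and 0 CPM just inside and 54.0 and 11.9 CPM at 10 to 40. F13a1 overlapped between the genotypes in cells without an Elane UMI, just inside the gate and at 10 to 40. It did not overlap above 0 and below 3, at 97.3 and 64.4 CPM in control against 38.8 and 33.0 CPM in knockout libraries. Just outside the gate it was at 104 and 112 against 78.1 and 68.4 CPM, also without overlap. Over the whole range of 5 to 40 it was at 184 and 227 against 134 and 63.5 CPM. Just inside the gate it measured 142 and 122 CPM in control and 142 and 50.8 CPM in knockout libraries. At 10 to 40 it measured 198 and 270 CPM against 204 and 47.5 CPM. The knockout values of Ly6c2 and F13a1 at 10 to 40 rest on 7 and 9 cells.

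**Figure D3:**
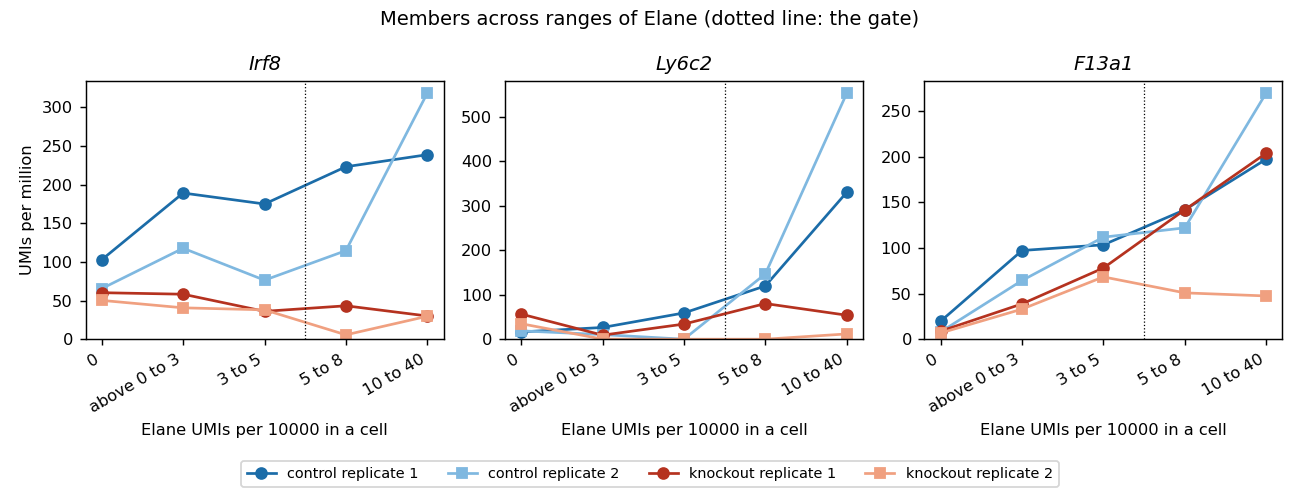
Levels (CPM) of Irf8, Ly6c2 and F13a1 by range of Elane UMIs per 10000 UMIs of a cell, 1 line per library, with the gate at 5 as a dotted line and ranges with few knockout cells left out. Irf8 rises towards 239 and 318 CPM in the control libraries and stays at or below 60.2 CPM in the knockout ones. For F13a1 knockout replicate 1 reaches 204 CPM at 10 to 40, between the 2 control libraries. The knockout points at 10 to 40 rest on 7 and 9 cells.

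Over all LSK cells, 7 of 8 members were lower in the knockout at an adjusted p of 0.05, where 2.16% of 13779 genes were lower and 1.57% higher. A sum over all cells cannot tell fewer cells of a type from less RNA per cell, and Elane-high cells were 20.2% and 10.5% of control cells and 1.70% and 0.614% of knockout cells. Elane itself was at 1831 and 1067 CPM in control and 44.8 and 24.9 CPM in knockout libraries. Csf1r had 12.5 and 10.4 CPM in control against 1.65 and 0.854 CPM in knockout libraries (log2 fold change -3.28 ± 0.32, adjusted p = 0.00645, edgeR). Irf8 fell less here than within the Elane-high cells, from 166 and 109 CPM to 58.8 and 48.9 CPM (log2 fold change -1.39 ± 0.21, adjusted p = 0.0226, edgeR). Clec12a, Ly86, Ly6c2, F13a1 and Tifab fell with log2 fold changes between -1.78 and -2.67. Ctsh, at 19.6 and 20.5 against 14.1 and 12.1 CPM, missed the threshold (log2 fold change -0.66, adjusted p = 0.0757).

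In cells below the Elane gate, 2 members passed as lower, both of them receptors, where 1.69% of 13548 genes were lower and 0.974% higher. Csf1r went from 8.32 and 6.19 CPM to 1.56 and 0.862 CPM (log2 fold change -2.62 ± 0.32, adjusted p = 0.0213, edgeR). Clec12a went from 71.4 and 51.8 CPM to 28.5 and 24.4 CPM (log2 fold change -1.21 ± 0.18, adjusted p = 0.0318, edgeR). Irf8 was at 124 and 74.0 CPM in control and 59.4 and 49.1 CPM in knockout cells and missed the threshold (log2 fold change -0.86, adjusted p = 0.0898). It passed in 4 of 10 alternatives, by DESeq2 (adjusted p = 0.0122), with the replicate block (adjusted p = 0.0102) and without either control library (adjusted p = 0.0456 and 0.00368), and DESeq2 called 4 members as lower and 1 as higher there. Ly6c2 pointed the other way, at 21.0 and 17.2 CPM in control and 47.3 and 30.9 CPM in knockout cells, also without passing (log2 fold change 1.04, adjusted p = 0.0602). It passed as higher in 5 of 10 alternatives, among them with copies kept, by DESeq2 and with the replicate block. Below the gate the knockout libraries held 21 and 52 pDC-gated and 113 and 272 B-lineage-gated cells, the classes with the most Ly6c2 there, against 5 and 0 pDC-gated and 12 and 8 B-lineage-gated control cells. Their part in the Ly6c2 level was not tested. Without knockout replicate 2 no member passed edgeR's test below the gate, where 4 of 8 had an unadjusted p under 0.05.

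The difference between these fold changes was tested within libraries, by setting the genotype effect in Elane-high cells against that in the cells below the gate. The mixture of classes below the gate differed by genotype, as given above, and its part in these differences was not tested. Only Ly6c2 and Irf8 of the 8 members passed, where 0.0619% of 12932 genes were more negative and 0.0773% more positive in Elane-high cells. The difference in log2 fold change was -5.31 ± 0.32 for Ly6c2 (adjusted p = 2.84e-05, edgeR) and -2.32 ± 0.35 for Irf8 (adjusted p = 0.0355, edgeR). With copies kept, the value for Ly6c2 was -2.35 (adjusted p = 0.00133) and that for Irf8 -0.45 (adjusted p = 0.608). Leaving out control replicate 2, knockout replicate 1 or knockout replicate 2 also took Irf8 out of the called genes, with adjusted p-values of 0.0528, 0.448 and 0.344 at differences of -1.94 to -2.43. Ly86 had a difference of -4.41 ± 1.03 (adjusted p = 0.220, edgeR), Ctsh -2.73 (adjusted p = 0.0630) and Tifab -1.31 (adjusted p = 0.558), and Csf1r, Clec12a and F13a1 had differences between -0.34 and -0.03 that did not pass either.

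**Figure D4:**
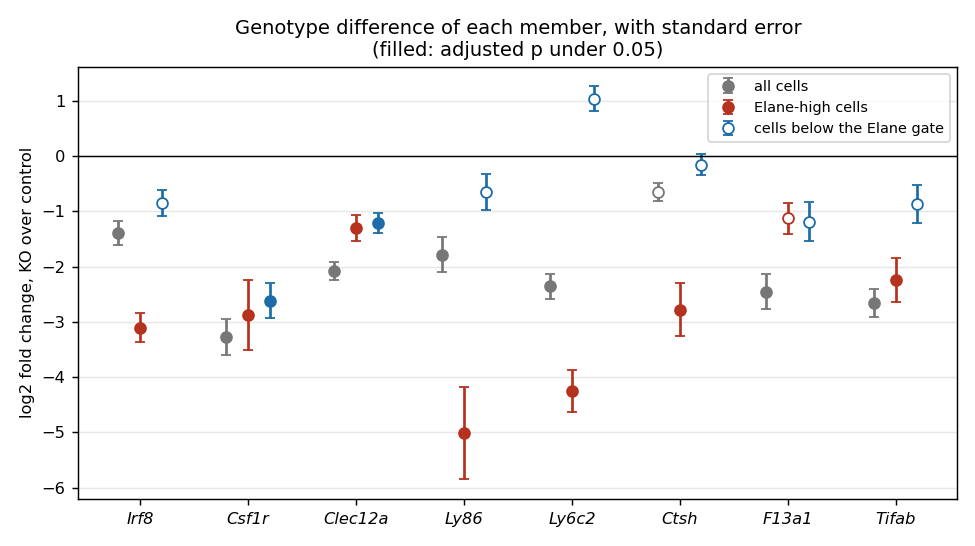
Log2 fold change, knockout over control, of the 8 members over all LSK cells, within Elane-high cells and below the Elane gate, with bars for the SE and filled points for an adjusted p under 0.05. All Elane-high points are negative, from -1.13 for F13a1 to -5.01 for Ly86, whose knockout count was 1 UMI, and Ly6c2 is the only member above 0 below the gate.

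The share of Elane-high cells in which Irf8 was seen depends on depth, so each cell was thinned to 2000 UMIs. Irf8 was then found in 32.0% and 36.8% of control and 14.8% and 0% of knockout Elane-high cells (34.4 ± 3.40 against 7.41 ± 10.5, SD, n = 2, exact two-sided permutation test p = 0.333, the smallest that 2 against 2 libraries allow). The 0 of 21 cells in knockout replicate 2 allows a share of up to 14.3% with an Irf8 UMI at that thinned depth, while 6 of the 21 held one without thinning. Without thinning the shares were 68.6% and 74.6% against 51.9% and 28.6%, at median depths of 11734, 29982, 26725 and 19918 UMIs. Erythroid-gated cells, which should lack Irf8, gave 4.76%, 0%, 0% and 3.64% of thinned cells, with median depths of 9202 to 24457 UMIs before thinning. The share of knockout replicate 1 rests on 4 of 27 cells, and whether it exceeded this background was not tested. With copies kept the thinned shares were 31.7%, 26.8%, 29.7% and 31.5%, and the difference was +1.397 percentage points, the other way. Elane-high cells themselves made up 15.3 ± 6.83% of control and 1.16 ± 0.768% of knockout cells (SD, n = 2, exact two-sided permutation p = 0.333, the smallest possible).

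Elane-high cells in which Irf8 was detected after thinning were set against those without it in the same library. Their numbers were 501 and 1065 in control replicate 1, 46 and 79 in control replicate 2, and 4 and 23 in knockout replicate 1. Knockout replicate 2 had none with Irf8 and dropped out of the fit. Only 3 of the other 7 members had enough counts, and 2 of them passed as higher in the Irf8-detected cells, where 1.41% of 1914 genes were higher and 0.888% lower. Ly6c2 measured 884 against 422 CPM in control replicate 1 and 1261 against 342 CPM in control replicate 2 (log2 fold change 1.14 ± 0.10, adjusted p = 9.58e-06, edgeR). F13a1 measured 345 against 155 CPM and 413 against 139 CPM (log2 fold change 1.21 ± 0.12, adjusted p = 5.20e-05, edgeR). Clec12a, at 252 against 217 CPM and 326 against 222 CPM, did not pass (log2 fold change 0.24, adjusted p = 0.411). Knockout replicate 1, with 4 Irf8-detected cells, had 0 against 2 UMIs of Ly6c2, 1 against 7 of Clec12a, 0 against 1 of Tifab and 5 against 2 of F13a1.

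The 4 members with too few counts for the fit were higher in Irf8-detected cells of both control libraries. Csf1r had 45.9 against 15.5 CPM and 32.6 against 19.0 CPM, and Ly86 had 35.9 against 8.92 CPM and 54.3 against 25.3 CPM. Ctsh was at 46.9 against 23.5 CPM and 43.5 against 6.33 CPM. Tifab showed 56.9 against 31.0 CPM and 43.5 against 25.3 CPM. In control replicate 2 these rest on few UMIs, with 3 against 3 for Csf1r, 5 against 4 for Ly86, 4 against 1 for Ctsh and 4 against 4 for Tifab. Among other genes, the largest support for a rise went to Fcer1g (the Fc receptor gamma chain), Lgals1 (galectin-1) and Ms4a6c, with log2 fold changes of 1.20, 0.84 and 0.96. The fall with the smallest p was that of S100a8, a subunit of the neutrophil protein calprotectin, at -3.86 ± 0.31 (adjusted p = 8.07e-06, edgeR). Cd63, Nkg7, Vamp5 and Pglyrp1 followed in order of p, at -1.32, -0.76, -1.08 and -0.87. The split compares cells within a library at the same thinned depth, at which Irf8 is still missed in some cells that hold it. DESeq2 made no call in the split, with 16 genes at an unadjusted p under 0.05.

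**Figure D5:**
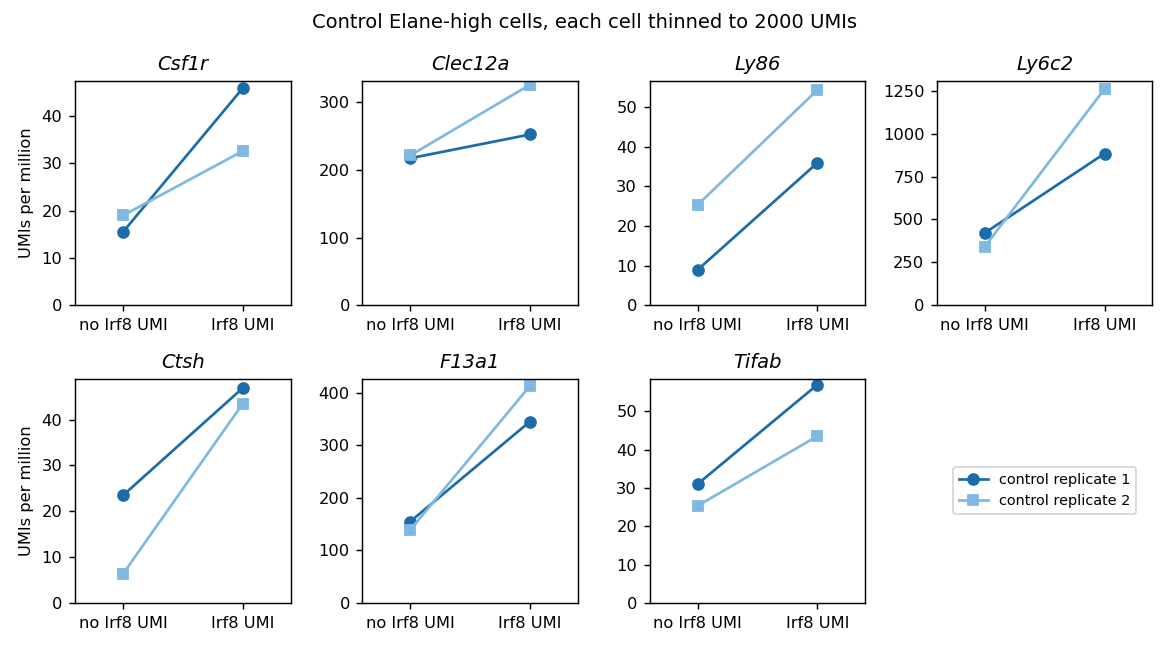
Levels (CPM after thinning to 2000 UMIs a cell) of the other 7 members in control Elane-high cells with and without a detected Irf8 UMI, with a line joining the 2 values of each control library. Every line rises towards the Irf8-detected cells, from 422 to 884 CPM and from 342 to 1261 CPM for Ly6c2, and least in proportion for Clec12a.

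Over the mean level in 11 classes, genes whose pattern was most like that of Irf8 included Vsir, Pkib, Nrp1, Mpeg1, Rbms1, Npc2, Colgalt1, Ly86 and Tifab, with Pearson's r from 0.949 to 0.921 on log2(CPM + 5). This was a ranking of 4626 genes over classes that share libraries. Each of these genes was highest in the pDC-gated cells, whose level comes from the knockout libraries. Ly86 came 8th and Tifab 10th, and Ctsh followed at place 60 with r = 0.860. Ly6c2 (r = 0.697), Clec12a (0.629) and F13a1 (0.199) were less like Irf8, and F13a1 had a mean of 1.92 CPM in the pDC-gated cells.

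Of 19 other monocyte genes, 15 could be tested in Elane-high cells and 4 of these were lower and none higher. They were the signalling adaptors Tyrobp and Fcer1g, lysozyme (Lyz2) and Pld4, an endosomal nuclease. Tyrobp had 291 and 380 CPM in control against 108 and 102 CPM in knockout cells (log2 fold change -1.71, adjusted p = 0.00652, edgeR). Fcer1g had 219 and 317 CPM against 82.5 and 84.1 CPM (log2 fold change -1.73, adjusted p = 0.0104, edgeR). Lyz2 and Pld4 had log2 fold changes of -1.33 and -3.09 (adjusted p = 0.0313 and 0.0345, edgeR). Pld4 had 312 and 103 UMIs in control and 2 and 1 in knockout Elane-high cells. Like Csf1r, Ly86 and Ctsh it passed the filter on low counts through the control libraries alone. Its adjusted p is therefore given as description and not as support for a fall. The median over the tested list was -1.52, against -0.02 over all genes. In the Irf8-detected cells 6 of 6 tested genes of this list were higher, Fcer1g, Ms4a6c, Lyz2 (0.98) and Tyrobp (0.78) among them.

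None of the 6 tested relatives of Irf8 in the IRF family passed in Elane-high cells (0 at an unadjusted p under 0.05 and 0 by DESeq2), and Irf4, which acts in lymphocytes and dendritic cells, was higher over all cells (log2 fold change 3.47, adjusted p = 0.0205, edgeR). Of 13 tested partners of Irf8 and other lineage factors 5 had an unadjusted p under 0.05 in Elane-high cells, and DESeq2 called 2 of the list. Only Egr1, an immediate early gene, passed edgeR's test there. It went from 102 and 56.4 CPM to 20.0 and 17.7 CPM (log2 fold change -2.08, adjusted p = 0.0113, edgeR). Spi1, which encodes PU.1, was at 294 and 292 CPM in control and 237 and 208 CPM in knockout Elane-high cells and did not pass there. Over all cells Spi1 was lower (log2 fold change -0.78, adjusted p = 0.0387), with Egr1 (-2.23) and Cebpe (-3.42). Zeb2 and Klf4, both needed for monocytes, had log2 fold changes of -1.15 and -1.26 in Elane-high cells without passing (adjusted p = 0.0622 and 0.291).

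Among genes near the members in function, Tifa, the TRAF6-binding relative of Tifab, was lower in Elane-high cells, at 20.7 and 34.2 CPM against 3.99 and 4.43 CPM (log2 fold change -2.73, adjusted p = 0.0307, edgeR). The knockout values rest on 3 and 2 UMIs, and DESeq2 called 0 of the TRAF6 and RP105 list. Tifa also passed the filter on low counts through the control libraries alone, so its adjusted p is given as description. The RP105 gene Cd180, partner of Ly86, had 5.69 and 4.70 CPM in control and 5.33 and 4.43 CPM in knockout Elane-high cells. The knockout values of Cd180 rest on 4 and 2 UMIs, too few to tell whether its level differed. Of the colony-stimulating factors and their receptors other than Csf1r, 0 of 5 tested genes passed in Elane-high cells (1 at an unadjusted p under 0.05, 0 by DESeq2). Among these was the GM-CSF receptor gene Csf2ra at -1.07 (adjusted p = 0.124, edgeR). Csf2ra was lower over all cells (log2 fold change -1.20, adjusted p = 0.0113, edgeR). Apart from Ctsh, none of 6 tested cathepsins and lysosomal enzymes passed in Elane-high cells, nor did any of 2 tested relatives of Ly6c2. At an unadjusted p under 0.05 there were 2 and 0, and DESeq2 called 0.

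Over all cells 6 of 6 primary granule genes were lower in the knockout (median log2 fold change -2.34), as were 3 of 9 late granule genes (median -3.16). Of the primary granule genes 0 of 5 tested and of the late granule genes 0 of 8 tested passed edgeR's test in Elane-high cells. At an unadjusted p under 0.05 there were 4 and 3, and DESeq2 called 2 and 0. Their median log2 fold changes were -0.70 and 0.79. S100a8 was at 135 and 805 CPM in control and 533 and 1944 CPM in knockout Elane-high cells, ranges that overlapped. Of the late granule genes 5 of 9 had a more positive genotype effect in Elane-high cells than below the gate, where 4 of 9 were lower in the knockout. Dendritic genes were higher in the knockout over all cells (9 of 17, none lower) and below the gate (7 of 16), but 0 of 6 tested passed in Elane-high cells (0 at an unadjusted p under 0.05, 0 by DESeq2).

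The fit across all genes in Elane-high cells placed Irf8 and Ly6c2 first and second by p among the genes that fell. They were followed by the chemokine genes Cxcl10 and Ccl3 (log2 fold changes -4.15 and -2.45) and Tyrobp. The 5 rises with the smallest p were Gm8251, 9430060I03Rik, B930036N10Rik, Id1 and Atcayos, with log2 fold changes of 3.89, 3.12, 1.83, 1.65 and 4.60. The 5 macrophage markers summed to 8.46, 5.48, 6.66 and 4.43 CPM in control replicates 1 and 2 and knockout replicates 1 and 2, and the T cell genes Cd3e and Cd3g were at 0 in all libraries. The T or NK list summed to 444, 374, 252 and 467 CPM, nearly all of it Nkg7, and the plasma cell genes Jchain and Sdc1 to 20.4, 3.92, 3.99 and 2.21 CPM. Their part in the members' levels was not tested. Of the genes used in the sort, Kit was at 69.9 and 70.0 CPM in control and 54.6 and 37.6 CPM in knockout Elane-high cells, and Ly6a, which encodes Sca1, at 76.5 and 85.9 against 120 and 37.6 CPM.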

How the data were processed

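Single-cell RNA was counted in LSK cells, with 2 control and 2 knockout libraries, each pooled from 3 bone marrows. The authors made the UMI counts with Cell Ranger 3.1 on the mouse build mm10 (GRCm38), and these counts were deposited as 1 table of genes by barcodes per library. No cells were annotated there and no doublet caller was run.

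A barcode was used if it had 200 genes or more and no more than 10% mitochondrial UMIs (24973 of 25242), and 10932 of these (43.8%) were left out as copies of a barcode with at least 3 times the UMIs in another library. Cells were gated on marker panels at 5 UMIs per 10000. Sums of UMIs for each library were tested with edgeR 4.0.16 in R 4.3.3 (quasi-likelihood test without the legacy option, TMM scaling, filterByExpr, Benjamini-Hochberg over all genes tested, threshold 0.05). Libraries were the replicates, and p-values measure the spread between 2 pools a genotype. Single shares were compared by an exact permutation test. Intervals cover counting error only. Scripts were tested on simulated data, where false calls ran above the 0.05 threshold for the genotype comparisons over all, Elane-high and lower-Elane cells when the dispersion was drawn gene by gene, so adjusted p-values near it are to be read with care.

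Alternatives were DESeq2 1.42.0, no filter on low counts, kept copies, other gates, thinning to 4000 UMIs, cells with at least 2000 UMIs, each library left out and a replicate block. The legacy quasi-likelihood fit was added after seeing the data. The members and gene lists were chosen with earlier results of these data known. Named genes were all 8 members, up to 4 genes a list by smallest p, the 5 rises and 5 falls with the smallest p in Elane-high cells and in the Irf8 split, the 10 genes most like Irf8 among those with at least 50 CPM in a class (1 of them is not reported here), and Elane. Cd180, Spi1 and S100a8 in Elane-high cells were named after their values were seen.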

Additional observations from a re-analysis of the deposited data

Results flagged for a closer look

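The log2 fold change between genotypes differed between Elane-high cells and the cells below the Elane gate for 2 members by a test of the difference itself. The members were chosen with the contrast in Elane-high cells known. For Ly6c2 the log2 fold changes of -4.25 in Elane-high cells and 1.04 below the gate differed by -5.31 ± 0.32 (SE, adjusted p = 2.84e-05 by edgeR's quasi-likelihood test over 12932 genes, n = 2 libraries a genotype). It stayed past the threshold in 8 of 8 alternatives, at -6.21 to -2.35. For Irf8 the log2 fold changes of -3.10 and -0.86 differed by -2.32 ± 0.35 (adjusted p = 0.0355), and 4 of 8 alternatives passed, with adjusted p-values from 2.06e-17 (legacy quasi-likelihood) to 0.608 (copied barcodes kept). The legacy fit was added after seeing the data and called 183 genes for this difference, against 18 in the reported fit. Its p-value is therefore given as description and not as support. The log2 fold change of Ly6c2 below the gate did not itself pass the test in the reported fit. The cells below the gate were a different mixture in each genotype. There were 73 knockout against 5 control pDC-gated cells, and 385 against 20 B-lineage-gated cells. The part of this mixture in the differences was not tested.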

How the results depend on the processing

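Of 347 values of single members under the alternatives, 275 kept their direction and their side of the threshold, 41 no longer passed, 22 newly passed and 9 turned in direction. The 9 that turned had not passed: Ctsh below the gate (-0.33 to 0.025 with 1 library left out, turned without control replicate 2), and in the difference between cell classes Csf1r (1.44 with copies kept, -9.06 to 0.10 with 1 library left out, turned without knockout replicate 2), Clec12a (0.47 with copies kept, -0.54 to 0.30, turned without control replicate 2), F13a1 (0.47 with copies kept, -0.74 to 0.54, turned without control replicate 2, and 0.13 without knockout replicate 2) and Tifab (+0.0081 with copies kept). Counts of called genes moved more. Over all LSK cells 514 genes were called, 877 by DESeq2 and 324 to 2727 with 1 library left out. In Elane-high cells 79 were called, 13 with copies kept, 283 without the filter, 52 at 5 to 40 Elane UMIs per 10000, 3 to 182 with 1 library left out (3 without knockout replicate 2) and 0 by edgeR with the gate at 10, where 866 had an unadjusted p under 0.05. Below the gate 361 were called, 557 with copies kept, 903 by DESeq2 and 36 to 3105 with 1 library left out. For the difference between classes 18 were called, 39 by DESeq2, 183 by the legacy quasi-likelihood fit and 4 to 38 with 1 library left out. In the Irf8 split 44 were called, 8 without the filter, 0 by DESeq2 (16 at an unadjusted p under 0.05) and 0 to 84 with 1 library left out. It gave 0 without either control library, where 58 and 155 genes had an unadjusted p under 0.05. The share of Elane-high cells with Irf8 turned to +1.397 percentage points with copies kept. Causes were not tested. The replicate block called 1341 genes over all cells, 158 in Elane-high cells and 1161 below the gate. Samples of the 2 genotypes share only a number, with a correlation of deviations of -0.197 over 7888 genes. The median log2 fold change of all genes in Elane-high cells was 0.12 by DESeq2 and -0.17 without the filter, against -0.02, and that of the difference between classes was 0.25 by DESeq2 and -0.24 without the filter, against -0.12. Of 144 class levels 88 were counted as moved with gates at 10, and 56 of 168 were with copies kept. A level was counted as moved if it shifted by 1 SD or more. A level from only 1 library has no SD and was always counted as moved, so these counts overstate the shifts. With 48 knockout Elane-high cells, members at 0 to 4 UMIs a library there are known only within wide counting error.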
